A study of Mus musculus with 4 samples.

Results

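The Hox genes were the 39 genes, out of 31829 gene names on the array, whose probes carry the name of a member of the Hoxa, Hoxb, Hoxc or Hoxd cluster. They were read by 44 probes, and the brightest probe of a gene gave its value. The array measured RNA of cultured breast cancer cells that had been derived from MMTV-Neu tumours (the MMTV promoter, active in mammary epithelium, expresses the oncogene Neu, the rat form of Her2). Of 4 samples, 2 were Pak1-/- (cells from mice that lack the p21-activated kinase Pak1) and 2 were Pak1+/+ (cells from mice with the intact gene). All cells of both groups were Her2 positive, were grown in low calcium medium with 5% horse serum, and had been deprived of serum for 3 h and stimulated with the growth factor EGF for 15 min. The series design names 2 tumours per group, so the groups stand for 2 tumours each and a difference between them holds what differs between those tumours too; the age of the mice and their strain are not given in the sources used here.

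HOX proteins are homeodomain transcription factors that set position along the body axis in the embryo, and they stay in use in adult tissues such as the mammary gland, where Hoxa9, Hoxb9 and Hoxd9 act together in the growth of the gland in pregnancy. The genes lie in 4 clusters and carry paralogue numbers, low at the 3′ end of a cluster and high at the 5′ end, which also orders where and when they are switched on. HOX proteins bind DNA together with the homeodomain proteins of the PBX, MEIS and PKNOX families, while Polycomb complexes keep the clusters silent and Trithorax complexes keep them active.

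The array reads each gene through a probe of 60 bases. The Hoxa6 probe lies in coding sequence and is shown with the 4 codons for tyrosine, proline, tryptophan and methionine in capitals, which belong to the short motif through which HOX proteins hold PBX proteins.
Hoxa6 probe: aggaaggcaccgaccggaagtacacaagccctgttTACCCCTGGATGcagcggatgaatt

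Sequence before the start of transcription was at hand for 22 of the 39 genes (24 starts, from RefSeq on build GRCm38.p6). The 250 bases before the start are shown for Hoxa2, Hoxa3, Hoxa6 and Hoxa7, neighbours in 1 cluster whose signals differed between the groups in both directions. Capitals mark matches on either strand to TGATNNAT, a HOX-PBX composite motif, and to TGACAG, the MEIS motif, and the matches shown do not overlap each other. Hoxa2 (chr6:52164832-52165081, minus strand) held 1 match to each motif, and Hoxa3 (chr6:52213068-52213317, minus strand) held 1 to the MEIS motif. Hoxa6 (chr6:52208673-52208922, minus strand) and Hoxa7 (chr6:52218574-52218823, minus strand) held neither. By these positions the Hoxa3 start at hand is a distant one, between the starts of Hoxa6 and Hoxa7 and not next to that of Hoxa2. The HOX-PBX motif was in 4 of the 24 Hox sequences and in 7.68% of all 32851 such sequences, and the MEIS motif in 2 of 24 and in 15.9%. A Hox sequence held a median of 12.5 CpG pairs, where the median over all sequences was 6.
Hoxa2 upstream: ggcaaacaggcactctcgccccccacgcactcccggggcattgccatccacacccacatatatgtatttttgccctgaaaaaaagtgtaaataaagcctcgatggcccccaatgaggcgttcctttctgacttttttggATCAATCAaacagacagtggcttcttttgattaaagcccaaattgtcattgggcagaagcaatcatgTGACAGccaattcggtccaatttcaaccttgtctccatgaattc
Hoxa3 upstream: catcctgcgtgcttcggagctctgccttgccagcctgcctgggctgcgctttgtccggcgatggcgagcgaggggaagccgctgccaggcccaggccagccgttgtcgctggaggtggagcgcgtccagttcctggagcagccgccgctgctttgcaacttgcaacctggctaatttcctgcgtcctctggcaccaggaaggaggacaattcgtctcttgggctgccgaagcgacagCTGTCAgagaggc
Hoxa6 upstream: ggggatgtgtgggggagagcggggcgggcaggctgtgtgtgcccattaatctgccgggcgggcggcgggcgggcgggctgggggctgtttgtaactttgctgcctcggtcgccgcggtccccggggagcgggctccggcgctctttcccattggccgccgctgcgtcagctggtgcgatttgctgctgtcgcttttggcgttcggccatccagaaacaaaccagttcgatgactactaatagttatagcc
Hoxa7 upstream: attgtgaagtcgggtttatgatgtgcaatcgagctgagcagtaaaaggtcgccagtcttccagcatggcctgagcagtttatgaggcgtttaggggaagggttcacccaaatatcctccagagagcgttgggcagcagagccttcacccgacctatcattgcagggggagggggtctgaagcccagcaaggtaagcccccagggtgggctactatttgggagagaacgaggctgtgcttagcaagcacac

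Pak1 itself read 12.21 and 12.25 in the Pak1-/- samples and 12.04 in both Pak1+/+ samples, as normalized log2 intensity (difference 0.19, adjusted p = 0.070 in limma). The sources used here do not say which part of the gene the Pak1-/- allele lacks, so this probe does not check the labels, and every direction below follows them. Erbb2, the mouse gene for Her2, read 11.91 and 11.95 in Pak1-/- and 12.26 and 12.21 in Pak1+/+ (difference -0.31, adjusted p = 0.020 in limma). The arrays lay on 1 slide, with Pak1-/- at positions 1 and 2 and Pak1+/+ at positions 3 and 4, and effects of position cannot be told apart from those of genotype. Of all probes, 62.2% to 70.4% were well above background, by the scanner software's own flag, on an array. Of the 8 epithelial markers 7 were well above background on all 4 arrays, and 3 were higher in Pak1-/-. These were Krt8 (0.57 log2), Krt18 (0.27) and Cdh1, which codes for E-cadherin (1.19). Krt19 (-0.64), Epcam (-0.23), Cldn3 (-0.17) and Cldn7 (-0.0047) lay below 0 and Cldn4 (0.02) above it, all without passing. The log2 summed level was 20.15 to 20.17 in Pak1-/- and 19.87 to 19.90 in Pak1+/+, mostly that of the Krt8 and Krt18 probes. Of 8 leukocyte markers 5 were above background on all arrays, 1 was lower (Ptprc, -0.45 log2) and Lyz2 was dim on all 4. Itgam (0.49), Cd3e (0.25) and Csf1r (0.12) lay above 0 and Cd68 (-0.20) below it, all without passing. The summed level of 15.67 to 16.19 against 15.41 to 15.55 was mostly that of the Itgam probe (15.51 to 16.07 against 15.20 to 15.39). Of 8 fibroblast markers 4, Dcn, Lum and Pdgfrb among them, were dim on all 4 arrays. Col1a1 was higher by 1.12 log2, while Col1a2 (0.03) and Pdgfra (-0.16) did not pass. The summed level was 10.43 to 10.61 against 10.25 to 10.29. The endothelial list had 4 of 8 dim on all arrays and none past the threshold (summed level 13.33 to 13.38 against 13.19 to 13.44). The part of these markers in the Hox results was not tested.

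Most Hox genes gave no signal to compare: 24 of 39 stayed below the background flag on all 4 arrays, as did 25.3% of all genes. Of the genes with signal on every array, most were in the 3′ and middle part of the Hoxa cluster. On the 4 arrays, in the order Pak1-/- replicates 1 and 2 and Pak1+/+ replicates 1 and 2, 12, 10, 14 and 13 Hox genes were well above background. By cluster, Hoxa had 8 of 11 genes above background on every array, Hoxb 1 of 10, Hoxc 1 of 9 and Hoxd 0 of 9. A further 2 genes, Hoxb3 and Hoxc12, were above background on 1 array each, and the 13 that were above it on at least 2 arrays were tested. Dim probes lay between 5.86 and 6.80 log2.

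**Figure D1:**
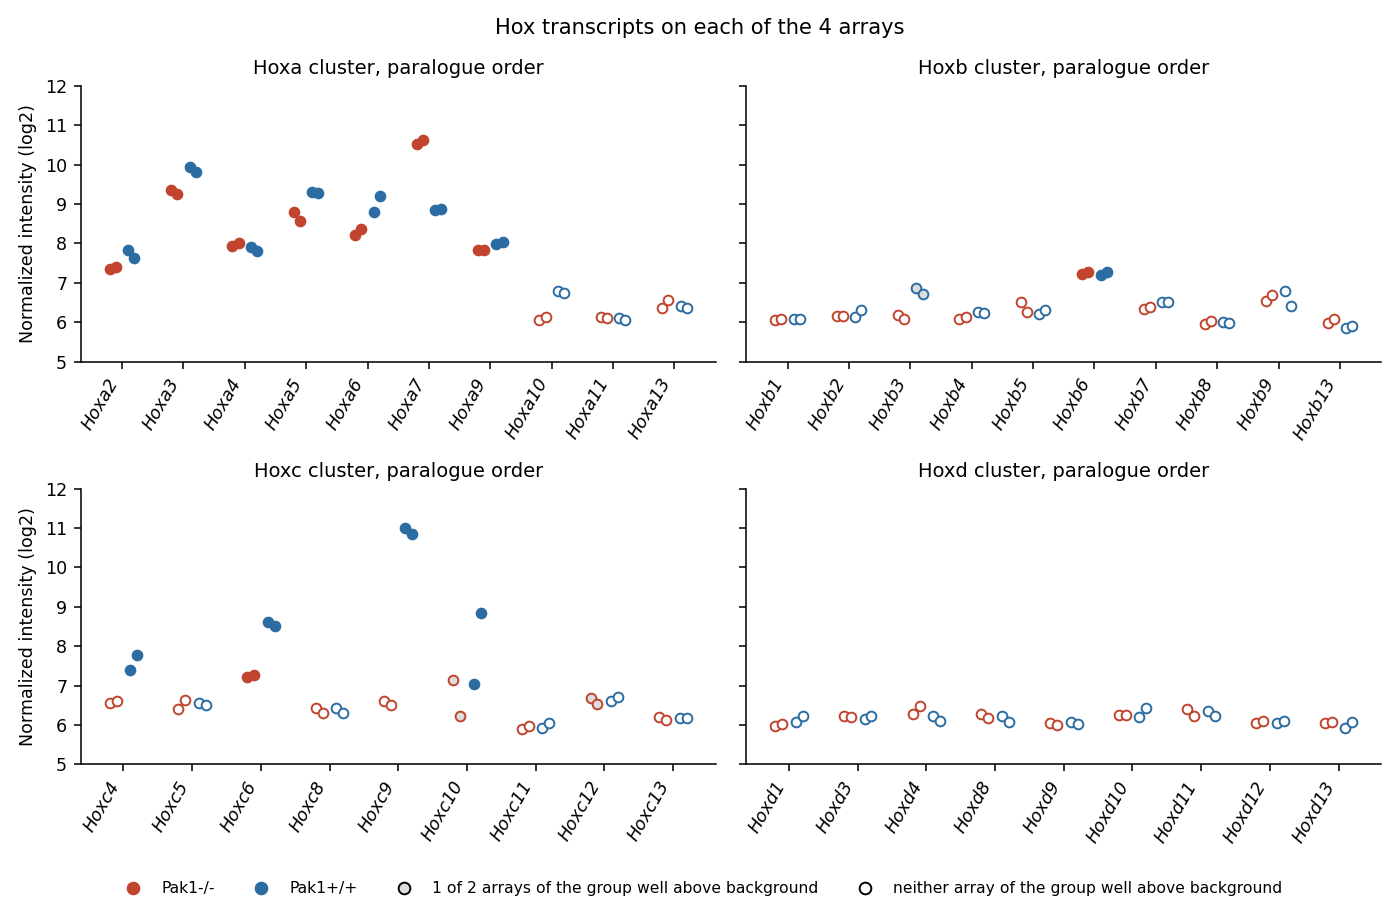
Normalized log2 intensity (vertical axis) of the Hox genes described here on each array, by cluster and in paralogue order (horizontal axis), with Pak1-/- in red and Pak1+/+ in blue, and with filled, grey and open points for groups in which 2, 1 or 0 of the arrays were well above background. Signal in Hoxa runs as far as Hoxa9, stops at Hoxa10, and does not rise above background across Hoxd, while Hoxc9 stands at 11.01 and 10.86 in Pak1+/+ and at 6.62 and 6.52 in Pak1-/-.

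Between the groups, 9 of the 13 tested Hox genes passed the threshold (adjusted p under 0.05 over all probes kept, limma): 2 were higher in Pak1-/- and 7 were lower. Across all genes tested 51% passed, 22.8% higher and 28.2% lower. Of the 7 lower genes, Hoxc4 and Hoxc9 entered the test only through the Pak1+/+ arrays and therefore had to differ. Among the 10 Hox genes above background on all 4 arrays, 7 passed, 2 higher and 5 lower, where 53% of all such genes passed, 22.1% higher and 30.9% lower. The groups did not overlap in 9 of those 10, against 79.9% of all such genes. Among those 10, Hoxa7 and Hoxc6 passed with a change of at least 2-fold, and by the fitted difference 12.6% of all tested genes did. Hoxc9 also exceeded 2-fold by its lower bound, whereas the bound of Hoxc4 lay below it. The median log2 difference over the 10 was -0.27, and over all genes above background on all 4 arrays it was -0.083.

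In the Hoxc cluster 1 gene, Hoxc6, was above background on all 4 arrays and was lower in Pak1-/-. Hoxc4 and Hoxc9 were above background in Pak1+/+ alone, so their direction was fixed by the filter. Hoxc9, a paralogue of the genes that act in mammary growth, had the largest difference of the Hox genes tested. Its probe (mm9 chr15:102814735-102814794) read 6.62 and 6.52 log2 in Pak1-/- and 11.01 and 10.86 in Pak1+/+. Both Pak1-/- values were not well above background, and the groups were far apart. Hoxc9 was thus at least 19.4-fold higher in Pak1+/+ (adjusted p = 5.8e-05 in limma, which is no independent support, since the filter let the gene in through Pak1+/+ alone). Such a bound sets the mean of the bright group against, on each dim array, either its own value or the dimmest value flagged as above background there, whichever is higher.

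Hoxc6, which codes for a homeodomain protein of the thoracic body region, was the single Hoxc gene above background on all 4 arrays. It read 7.22 and 7.27 in Pak1-/- and 8.61 and 8.51 in Pak1+/+ (mm9 chr15:102842243-102842302). The groups did not overlap, and Hoxc6 was 2.49-fold lower in Pak1-/- (log2 difference -1.32, 95% interval -1.51 to -1.12, adjusted p = 0.00046 in limma). With the scanner's processed signal, which has no added offset, the log2 difference was -2.02. Hoxc4, at the 3′ end of the cluster, read 6.56 and 6.62 in Pak1-/- and 7.39 and 7.78 in Pak1+/+. Both Pak1-/- values were again not well above background, so that Hoxc4 was at least 1.95-fold higher in Pak1+/+ (adjusted p = 0.0053 in limma, with the same limit). With either Pak1+/+ array left out, Hoxc4 and Hoxc9 were above background on 1 array alone and had no test.

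Hoxc10, next to Hoxc9 on its 5′ side, varied within the groups. It read 7.14 and 6.23 in Pak1-/- and 7.05 and 8.83 in Pak1+/+, and the groups overlapped. The log2 difference of -1.26 (SE 0.66) did not pass (adjusted p = 0.18 in limma). Without Pak1+/+ replicate 1 it was -2.15 and passed (adjusted p = 0.014), and without Pak1+/+ replicate 2 it was -0.37 and did not pass (adjusted p = 0.49). Without either Pak1-/- array it did not pass. Each of these fits leaves 1 sample in a group and assumes that it varies like the other group. Of the rest of the cluster, Hoxc5, Hoxc8, Hoxc11 and Hoxc13 were dim on all 4 arrays, and Hoxc12 was above background on Pak1-/- replicate 1 alone, at 6.68.

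In the Hoxa cluster the genes differed in both directions, with Hoxa7 higher in Pak1-/- and Hoxa2, Hoxa3, Hoxa5 and Hoxa6 lower. Hoxa7 (mm9 chr6:52165626-52165685) had the largest change of the cluster. It read 10.52 and 10.63 in Pak1-/- and 8.85 and 8.87 in Pak1+/+, with replicates of a group close together and the groups apart. Hoxa7 was 3.28-fold higher in Pak1-/- (log2 difference 1.71, 95% interval 1.51 to 1.92, adjusted p = 0.00025 in limma), and it passed under all 18 alternative settings, from 1.66 to 1.93 log2.

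The direct neighbour of Hoxa7 on the 3′ side, Hoxa6, went the other way, at 8.22 and 8.36 in Pak1-/- and 8.81 and 9.20 in Pak1+/+. Hoxa6 was 1.64-fold lower (adjusted p = 0.017 in limma), but without Pak1-/- replicate 1 or 2 it no longer passed (adjusted p = 0.088 and 0.059 in limma).

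Hoxa5, a regulator of p53 transcription in breast cells, read 8.80 and 8.56 in Pak1-/- and 9.32 and 9.27 in Pak1+/+, a log2 difference of -0.61 (SE 0.10, adjusted p = 0.0085 in limma). Hoxa3, needed for the organs of the pharyngeal arches, read 9.36 and 9.24 against 9.94 and 9.80, a difference of -0.57 (SE 0.090, adjusted p = 0.0068 in limma). Both were lower in each Pak1-/- sample than in each Pak1+/+ sample. Hoxa2, which patterns the second pharyngeal arch, had a smaller difference of -0.36 (7.35 and 7.40 against 7.84 and 7.62, adjusted p = 0.036 in limma) and lost its call under 9 of 18 alternative settings. Its upstream sequence was the one of the 4 shown with a match to both motifs.

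Hoxa4 and Hoxa9 lie among these genes and did not pass the threshold. Hoxa4 read 7.93 and 8.02 in Pak1-/- and 7.92 and 7.81 in Pak1+/+ (log2 difference 0.11, 95% interval -0.11 to 0.32, adjusted p = 0.32 in limma). Hoxa9 read 7.82 on both Pak1-/- arrays and 7.99 and 8.02 on the Pak1+/+ arrays, a difference of -0.19 (95% interval -0.36 to -0.01, unadjusted, adjusted p = 0.075 in limma). Its second probe gave -0.33 (95% interval -0.83 to 0.16, unadjusted) and did not pass either. The intervals of the brightest probes of Hoxa4 and Hoxa9 leave room for changes up to 0.32 and -0.36 log2. That of the second Hoxa9 probe leaves room up to -0.83. From Hoxa10 to the 5′ end the cluster was dim on all 4 arrays: Hoxa10 read 6.05 and 6.14 in Pak1-/- and 6.78 and 6.73 in Pak1+/+, below the flag in both groups, and Hoxa11 and Hoxa13 lay between 6.05 and 6.57.

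Hoxb6 was the single Hoxb gene above background on all arrays. It read 7.22 and 7.29 in Pak1-/- and 7.20 and 7.28 in Pak1+/+, and the groups overlapped (log2 difference 0.01, 95% interval -0.19 to 0.21, adjusted p = 0.92 in limma). The sign of that small value turned under 5 of 18 alternative settings. Hoxb3 was above background on Pak1+/+ replicate 1 alone (6.17 and 6.07 against 6.87 and 6.73). All 9 Hoxd genes, from Hoxd1 to Hoxd13, were dim on all 4 arrays, at 5.93 to 6.49, and so had no difference that these arrays could show. Hoxb9 and Hoxd9, the partners of Hoxa9 in the mammary gland, were both among the dim genes.

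**Figure D2:**
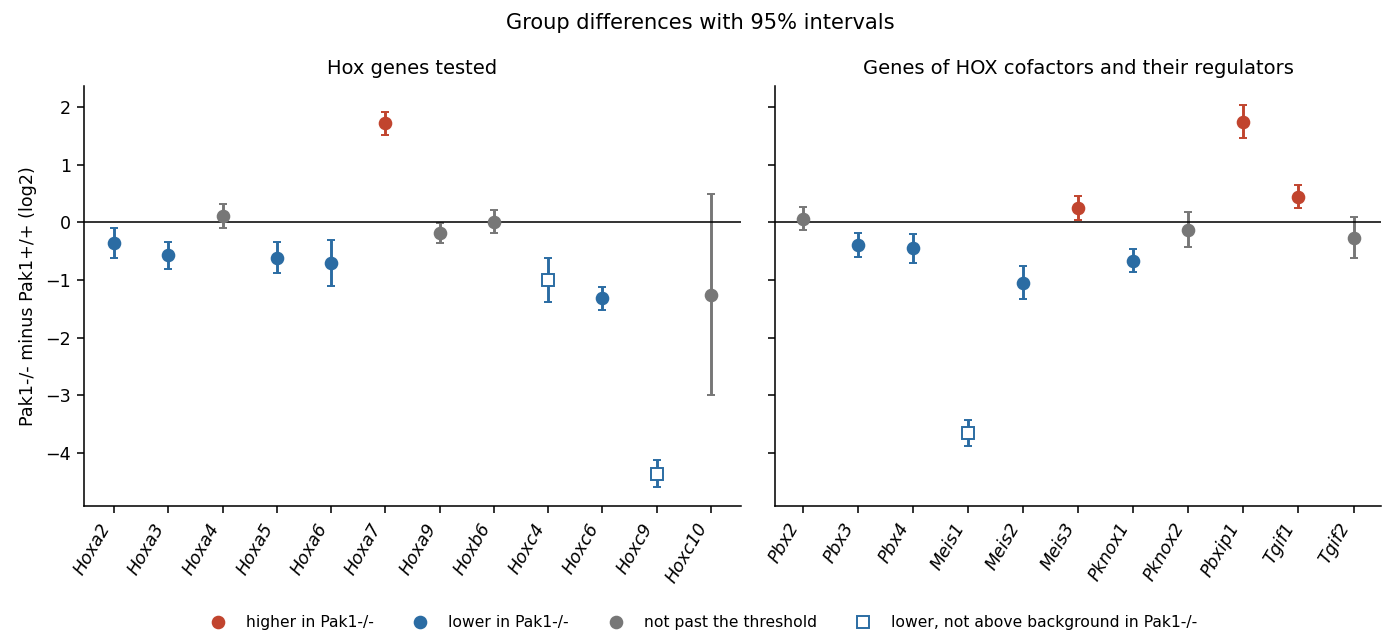
Log2 difference, Pak1-/- minus Pak1+/+ (vertical axis), with its unadjusted 95% interval from limma, for the tested Hox genes (left) and the genes of HOX cofactors and their regulators (right) described here, 1 point per gene on the horizontal axis. Open squares mark Hoxc4, Hoxc9 and Meis1, which were not well above background in Pak1-/- and whose fitted differences are no bounds, and the widest interval is that of Hoxc10, from -3.00 to 0.49.

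The cofactors of HOX proteins were all above background on at least 2 arrays, and 9 of 12 passed the threshold, 4 higher and 5 lower in Pak1-/- (51% of all genes passed). Their median log2 difference was -0.20. Meis1, which binds DNA with PBX and HOX proteins, read 6.46 and 6.58 in Pak1-/- and 10.13 and 10.24 in Pak1+/+. It was not well above background in Pak1-/-, was at least 11.8-fold higher in Pak1+/+ (adjusted p = 7.1e-05 in limma), and had to differ to be tested, so that this p is no independent support. Its relative Meis2 read 7.01 and 7.00 against 8.18 and 7.92, a 2.07-fold lower signal (adjusted p = 0.0019 in limma), and a log2 difference of -1.78 in place of -1.05 with the processed signal. Pknox1, a further partner of PBX proteins, was lower by a log2 difference of -0.67 (adjusted p = 0.0026 in limma).

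Among the cofactor genes that were higher, Pbxip1, whose product binds PBX proteins and keeps them from acting with HOX proteins, had the largest change. It read 17.16 and 16.90 in Pak1-/- and 15.27 and 15.31 in Pak1+/+, and it was 3.35-fold higher in Pak1-/- (adjusted p = 0.00057 in limma). Its 3 probes gave 1.70, 1.73 and 1.75 log2. Pbx4 was lower (-0.45, adjusted p = 0.015 in limma), a call lost without Pak1-/- replicate 2 (adjusted p = 0.066) or Pak1+/+ replicate 1 (adjusted p = 0.065). The rest of the list lay closer to 0, with Tgif1, a repressor of the same homeodomain class, at 0.45, Pbx3 at -0.39 and Meis3 at 0.25 log2, all past the threshold. Pbx2, Pknox2 and Tgif2 did not pass.

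The Polycomb and Trithorax genes, which set the chromatin state of the clusters, were called about as often as genes at large: of 45 listed, 44 had a probe, 41 were tested, and 11 were higher and 11 lower in Pak1-/- (all genes 22.8% and 28.2%), with a median of -0.07 log2. Phf19, an accessory subunit of the Polycomb complex that methylates H3K27, read 8.02 and 8.16 in Pak1-/- and 9.46 and 9.29 in Pak1+/+ (log2 difference -1.29, adjusted p = 0.00092 in limma), the one gene of the list past 2-fold. The core subunits of the same complex went both ways: Ezh2 (-0.63), Suz12 (-0.68) and Rbbp7 (-0.66) were lower, Rbbp4 (0.58) and the alternative enzyme Ezh1 (0.37) were higher, and Eed (-0.03) did not pass. Kdm6b, which removes that methyl mark, was higher by 0.93 log2 (adjusted p = 0.0014 in limma). Of the others with the largest changes, Gmnn (-0.89), a replication regulator that binds Polycomb and HOX proteins, and Pcgf6 (-0.86), a subunit of a Polycomb ubiquitin ligase, were lower. Phc2 (0.74), of the Polycomb complex that marks H2A with ubiquitin, and Jarid2 (0.71), which recruits the H3K27 methylating complex, were higher. Cbx7, Cdx2 and Cdx4 were dim on all 4 arrays.

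**Figure D3:**
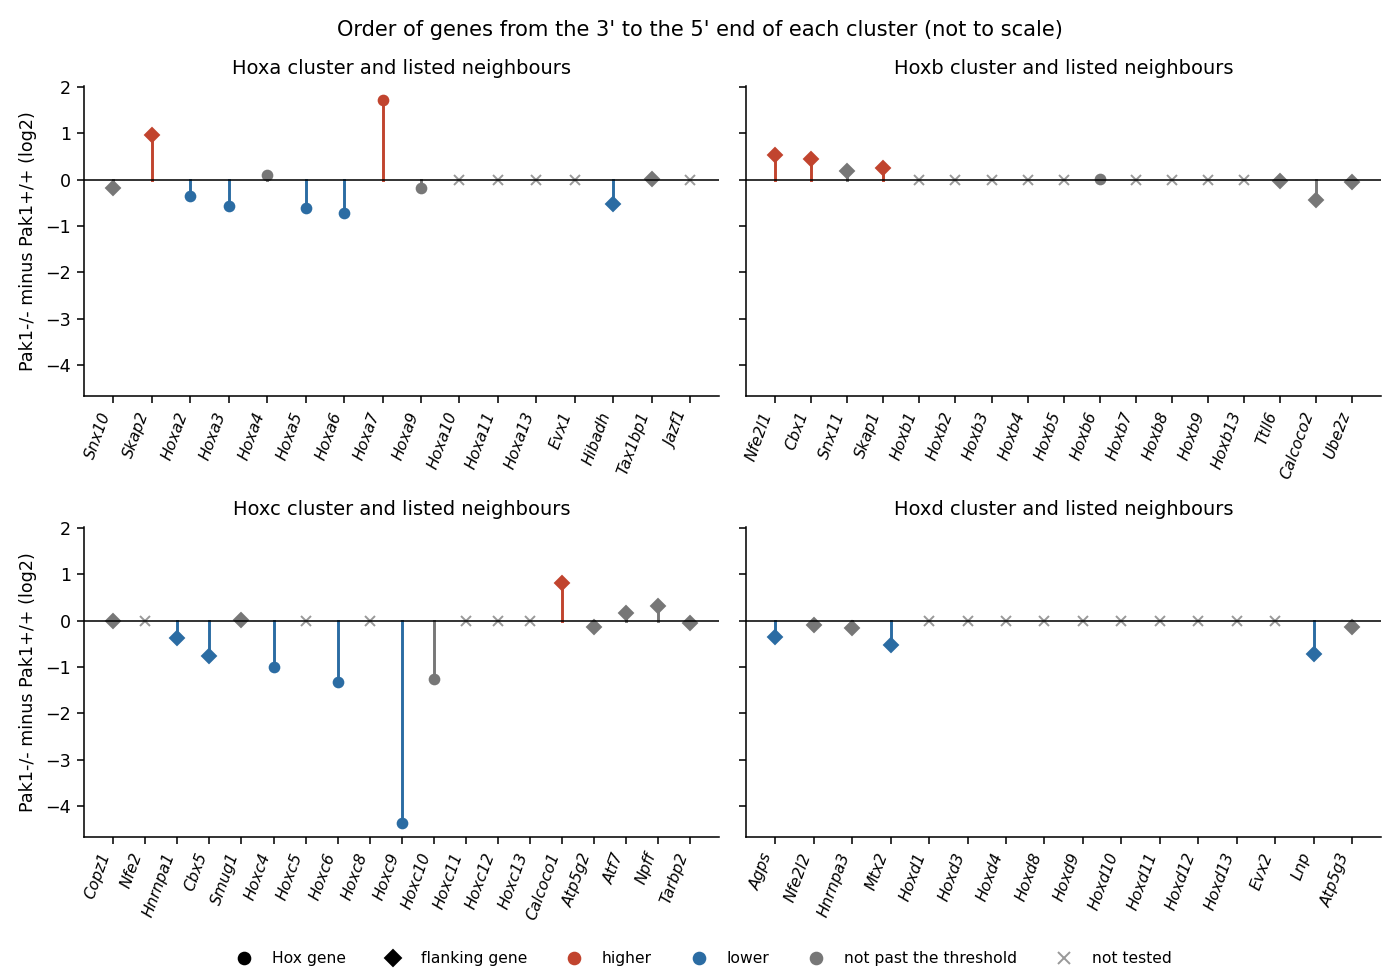
Log2 difference, Pak1-/- minus Pak1+/+ (vertical axis), of the Hox genes (circles) and listed flanking genes (diamonds) described here in their order along the chromosome from the 3′ side of each cluster (horizontal axis, not to scale), with crosses for genes not tested. The sign changes several times along Hoxa, where Hoxa6 lies at -0.71 and Hoxa7 at 1.71, and the tested Hoxc genes, with Hoxc4 and Hoxc9 held there by the filter, lie below 0 between Smug1 at 0.02 and Calcoco1 at 0.81.

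Genes next to the clusters were called in both directions: of 31 listed, 30 had a probe, 26 were tested, 5 were higher and 6 lower (22.8% and 28.2% of all genes), and 0 changed 2-fold (12.6% of all genes). Their median was -0.045 log2. On the 3′ side of Hoxa, Skap2, an adaptor protein of immune signalling, was higher (15.19 and 15.24 in Pak1-/- against 14.26 and 14.24, log2 difference 0.96, adjusted p = 0.00078 in limma). On the 5′ side Evx1, a homeobox gene, was dim on all 4 arrays, and the next gene, Hibadh, was lower (-0.54, adjusted p = 0.0033 in limma). The Hoxc cluster lay between Calcoco1 at its 5′ end, higher by 0.81 (adjusted p = 0.0013 in limma), and Smug1 at its 3′ end, a DNA repair glycosylase at 0.02 (adjusted p = 0.86 in limma). Cbx5, beyond Smug1, codes for the heterochromatin protein HP1 alpha and was lower by -0.75 (adjusted p = 0.0068 in limma).

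Around Hoxb, Skap1 on the 3′ side was at 0.25 (adjusted p = 0.045 in limma), Ttll6 on the 5′ side was at -0.03 (adjusted p = 0.83), and Nfe2l1, farther out on the 3′ side, was higher by 0.53, a call lost without Pak1-/- replicate 2 (adjusted p = 0.053 in limma). The dim Hoxd cluster lay between Mtx2 on the 3′ side, lower by -0.52 (adjusted p = 0.0073 in limma), and Evx2 on the 5′ side, which was dim on all 4 arrays. Past Evx2, Lnp, the gene of a protein that shapes the endoplasmic reticulum, was lower by -0.72 (adjusted p = 0.0041 in limma).

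Between the Hox genes lay 17 further probes of other transcripts, a set that was put together after values had been seen. Of these, 7 were dim on all 4 arrays, 8 were tested, and 2 passed, both lower in Pak1-/-, where 51% of all genes tested passed. The probe of 2700086A05Rik, between the Hoxa6 and Hoxa7 probes (mm9 chr6:52160572-52160631), read 10.33 and 9.87 in Pak1-/- and 11.03 and 11.00 in Pak1+/+ (log2 difference -0.92, adjusted p = 0.011 in limma). It thus had the sign of Hoxa6 and the opposite sign to Hoxa7. A transcript probe between Hoxa4 and Hoxa5, ENSMUST00000071583, was lower by -0.62 (adjusted p = 0.049 in limma). Hoxa11as, antisense to Hoxa11, lay at -0.06 and did not pass.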

How the data were processed

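Per the file headers, spot intensity on a linear scale was deposited for 4 one-colour Agilent arrays, read by the authors with Feature Extraction 9.5.3.1 and placed on mm9. Log2 values that the authors deposited as 1 table, normexp corrected and quantile normalized, served as an alternative. From the scanner files, background was corrected with normexp (offset 50, all spots) in limma 3.58.1 (R 4.3.3). Control spots were left out, log2 values were quantile normalized, spots with outlier flags were set aside and spots of a probe were averaged. Of 39429 probes, 27229 were well above background on at least 2 of 4 arrays and entered lmFit and eBayes (prior df 2.62, residual df 2) with Benjamini-Hochberg adjustment over all of them; 14132 passed 0.05. The code was tested on simulated data.

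A gene was represented by its brightest probe, and levels of different probes were not compared. All Hox genes were counted. Values on every array were due where a Hox gene passed with at least a 2-fold change, was dim in 1 group only or had probes that disagreed, and they are also given for further tested genes. Of each other list up to 6 genes with the largest change past the threshold and the nearest flanking genes were named, and genes named beyond that were chosen after their values were seen. Some genes that enter the counts are not reported here by name or value. Members and lists were chosen with earlier results of these data known. An exact test of 2 samples against 2 cannot go below p = 0.333, so the p-values rest on the spread that limma shares over probes. The labels number the samples 1 and 2 in each group and do not say whether equal numbers pair samples across the groups. In all, 18 alternatives were run. No exon or UTR annotation of mm9 was used here, and the precision is limited by 4 arrays.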

Additional observations from a re-analysis of the deposited data

How the results depend on the processing

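The Hox calls were 9 genes in the fit reported, 2 higher and 7 lower. They were 8 with the processed signal, with the replicate number as a block or with a trended prior variance. With a filter on all 4 arrays or at an adjusted p under 0.01 they were 7, and without the filter 10. With a required 2-fold change in the fitted difference they were 4, 1 higher and 3 lower. That count takes in Hoxc4, whose lower bound was 1.95-fold. Leaving out each array in turn gave 7 genes past the threshold each time, and under these settings the direction of every tested Hox gene but Hoxb6 stayed as given wherever it had a value. Hoxc6 was at -1.69 log2 without an offset and at -2.02 with the processed signal, past the threshold in both. The fitted differences of Hoxc4, Hoxc9 and Meis1, dim in Pak1-/-, also moved with these settings, and the bounds in the report are those of the fit with an offset of 50. Hoxb6, at 0.01 log2, was -0.033 with the processed signal scaled to the 75th percentile, -0.015 with normexp values scaled so, and -0.010 in the authors' table, and between -0.032 and 0.054 with 1 array left out; the cause was not tested.

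HOX cofactors that were higher, 4 in the fit reported, were 2 without an offset, with an offset of 16, with either 75th percentile scaling, without the filter or at an adjusted p under 0.01, 1 with a 2-fold change, and 2 to 3 with 1 array left out. Lower cofactors, 5, were 3 at 0.01, 2 with a 2-fold change, and 2 to 5 with 1 array left out, the 2 being without Pak1+/+ replicate 1. Polycomb and Trithorax genes higher, 11, were 4 at 0.01, 0 with a 2-fold change and 4 to 10 with 1 array left out (4 without Pak1+/+ replicate 2), and those lower, 11, were 7, 1 and 7 to 10 (7 without Pak1-/- replicate 1). Flanking genes higher, 5, were 8 with cyclic loess, 2 at 0.01, 0 with a 2-fold change and 3 to 4 with 1 array left out, and those lower, 6, were 0 with a 2-fold change. The stricter thresholds lower the counts by construction; for the other changes the cause was not tested. Scaling moved the median of all genes by less than 0.1 log2, from -0.086 to -0.00088.

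With the replicate number as a block, 13211 probes passed in place of 14132, and Hoxa2 was the Hox gene that lost its call. Same-numbered arrays did not deviate together (r = -0.028 across probes, which are not independent replicates). Whether same-numbered samples share more than their number cannot be told from 2 arrays per group. Without the filter on dim probes, Hoxa10 and Hoxb3 passed as lower although neither was well above background on 2 arrays. The arrays give no value for a gene below the background flag, which held for 24 of 39 Hox genes.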

Other observations

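Homeobox genes outside the Hox clusters are given here as values; the set of 94 genes was put together after values had been seen. Of these, 35 were dim on all 4 arrays and 54 were tested, of which 12 were higher and 8 lower in Pak1-/- (22.8% and 28.2% of all genes tested). Six4, a transcription factor of muscle and sensory organ development, read 11.18 and 11.20 log2 in Pak1-/- and 11.84 and 11.82 in Pak1+/+, lower by -0.64. Lhx2 read 9.79 and 10.08 in Pak1-/- against 6.82 and 6.57, with 1 of the 2 Pak1+/+ arrays well above background. Hopx read 8.86 and 8.60 against 6.84 and 6.74, likewise with 1 of the 2 Pak1+/+ arrays well above background. Dlx4 was higher by 1.43.

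The Iroquois genes, homeobox genes that lie in 2 clusters of their own, had 4 of 6 members higher in Pak1-/-, where 22.8% of all genes tested were higher. On chromosome 13, Irx1 read 15.39 and 15.34 in Pak1-/- against 14.04 and 14.03 (difference 1.33) and Irx2 was higher by 0.55, while Irx4 lay at -0.17 and did not pass. On chromosome 8, Irx3 was higher by 0.86 and Irx5 by 0.56, while Irx6 lay at 0.05 and did not pass.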
